A study of Homo sapiens and Mus musculus with 24 samples.

Results

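The chemokine ligand genes of cultured mouse cancer-associated fibroblasts were taken as every row of the fibroblast expression table whose symbol is Ccl or Cxcl followed by digits alone, or Cx3cl1 or Xcl1. This gave 34 of the 39089 genes in the table. Of these, 19 reached a level of 1 TPM, a length-scaled share of all transcripts, in at least 2 of 10 libraries and were tested. Another 7 were above 0 but below that level, and 8 were at 0 in all 10 libraries. The study sequenced total RNA of such fibroblasts and of a human prostate cancer line, whose libraries were not analysed here. Fibroblasts isolated from PtenPC-/-; Trp53PC-/- mice were harvested at day 7 after enzalutamide at 1 μM, TGF-β1 at 5 ng/ml, both agents at those doses, or DMSO. Fibroblasts from PtenPC-/-; Trp53PC-/- ADT mice were untreated and taken at day 0. Enzalutamide is an androgen receptor inhibitor and TGF-β1 a cytokine that activates fibroblasts. Each group had 2 libraries, which the labels call biological replicates without naming separate animals or isolates, so p-values measure the spread between these libraries. The labels give every fibroblast sample the genotype WT beside the mutant mice of origin, name no promoter for the deletions, and do not spell out ADT. ADT-mouse and DMSO fibroblasts differ in mouse, day and culture treatment, which cannot be told apart.

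Chemokines are small secreted proteins that steer migrating cells by binding G-protein-coupled receptors. The CC and CXC families are named for the spacing of their first cysteines, and CXC ligands with a Glu-Leu-Arg (ELR) motif before the first cysteine attract neutrophils through CXCR2. Fibroblasts of tumours are known sources of CXCL12 and CCL2, which act on CXCR4 and on CCR2 of monocytes.

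The TPM values of most genes lay on whole-read steps, and counting these steps gave a depth of 17035968 to 20383378 reads for each library. The fibroblast markers summed to 15810 to 18480 TPM, and 10 or 11 of 11 were at 1 TPM or more in each group. Single markers differed more than the sum: against DMSO, 4 were higher and 4 lower with both agents, and 3 higher and 4 lower in ADT-mouse fibroblasts. By the limma test described below, 74.2% and 74.8% of all genes differed in these comparisons (31.5% higher in each, 42.7% and 43.3% lower). S100a4, a calcium-binding protein gene, had 161 TPM with both agents and 157 TPM in ADT-mouse fibroblasts, against 2308 TPM with enzalutamide, 1720 TPM with TGF-β1 and 2259 TPM in DMSO fibroblasts. Col3a1, which encodes a fibrillar collagen, had 1349 and 1315 TPM in the both-agent and ADT-mouse groups, against 827 TPM in DMSO fibroblasts. The libraries labelled with both agents stood close to those of the ADT mice. The median over genes of their chi-square difference, in units of counting noise, was 1.61 to 1.91 in the 4 pairs of a both-agent and an ADT-mouse library, 1.29 to 1.56 in the 5 pairs of replicates, and 4.98 to 67.7 in the other 36 pairs. Markers of other cells also differed between these 4 libraries and the rest. The 13 macrophage and leukocyte markers summed to 31.0 and 31.5 TPM with both agents and 36.5 and 34.8 TPM in ADT-mouse fibroblasts, against 91.0 and 101 TPM with enzalutamide, 93.3 and 98.5 TPM with TGF-β1, and 112 and 110 TPM in DMSO fibroblasts. In the last 3 of these groups most of the sum was Lyz2, the lysozyme gene of macrophages, while the T-cell gene Cd3e was at 0 throughout. Of the 9 leukocyte markers tested, 2 were higher and 6 lower with both agents than with DMSO, and 2 were higher and 7 lower in ADT-mouse fibroblasts. Such counts stand beside the 74.2% and 74.8% of all genes that differed in the same comparisons. The higher pair was Cd74, the invariant chain of class II presentation, at 5.84 and 6.39 TPM in the both-agent and ADT-mouse groups against 0.946 TPM in DMSO fibroblasts, and the lipopolysaccharide co-receptor gene Cd14, at 18.0 and 19.5 TPM against 14.0 TPM. The 7 endothelial markers summed to 1.42 to 1.80 TPM in the both-agent and ADT-mouse libraries, and to 10.5 to 16.7 TPM in the other 6. Most of the latter was Emcn, at 7.05 TPM with enzalutamide, 7.71 TPM with TGF-β1 and 10.2 TPM in DMSO fibroblasts. Emcn was at 0 in the both-agent and ADT-mouse groups. Pecam1, too low to be tested, went the other way against DMSO, at 0.293 and 0.391 TPM in those groups and 0.189 TPM in DMSO fibroblasts. The 7 epithelial markers summed to 24.6 to 29.5 TPM in the both-agent and ADT-mouse libraries, against 8.88 to 19.9 TPM in the other 6, and most of this was Krt19, a simple-epithelium keratin gene. Epcam was at 0.743 TPM or less in every library. The 6 pericyte and smooth muscle markers summed to 56.3 to 61.8 TPM in the both-agent and ADT-mouse libraries, against 207 to 385 TPM in the others. Within that list, Cspg4, a proteoglycan gene, went the other way against DMSO, at 36.6 and 39.8 TPM in the both-agent and ADT-mouse groups and 19.2 TPM in DMSO fibroblasts, and its 238 TPM made up most of the sum with TGF-β1. The part of these markers in the chemokine results was not tested, and in bulk RNA fewer cells of a type and less RNA per cell cannot be told apart.

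Transcripts of the 34 ligand genes were fewest with TGF-β1 and most abundant with both agents. They summed to 1354 and 1334 TPM with enzalutamide, 995 and 1026 TPM with TGF-β1, 2404 and 2376 TPM with both agents, 2164 and 2221 TPM in ADT-mouse fibroblasts, and 2108 and 2054 TPM in DMSO fibroblasts. The sums with enzalutamide or TGF-β1 alone were below those of both DMSO libraries, and the make-up also differed between groups. Ccl2 and Ccl7 together held 76.0% and 76.2% of the sum with enzalutamide, 74.4% and 74.5% with TGF-β1, 52.9% and 51.4% with both agents, 51.9% and 51.2% in ADT-mouse fibroblasts, and 78.7% and 78.6% in DMSO fibroblasts. The ELR genes Cxcl1, Cxcl2, Cxcl3 and Cxcl5 held 7.24% and 6.84% with enzalutamide, 2.19% and 2.02% with TGF-β1, 33.1% and 34.1% with both agents, 32.7% and 33.8% in ADT-mouse fibroblasts, and 7.74% and 8.17% in DMSO fibroblasts. The ELR share was thus high in the both-agent and ADT-mouse libraries and lowest with TGF-β1.

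Differences were tested with limma on log2(TPM + 1), with p-values adjusted over all 14828 genes tested and called at an adjusted p under 0.05. The log2 scale with 1 added understates the change of genes near or below 1 TPM. With enzalutamide alone, 10 of the 19 ligand genes differed from DMSO, 1 higher and 9 lower, where 25.0% of all genes tested were called (9.83% higher and 15.2% lower). With TGF-β1 alone, 14 differed, 4 higher and 10 lower, against a background of 53.6% (19.0% higher and 34.6% lower). The both-agent libraries differed from DMSO in 15, 9 higher and 6 lower, where 74.2% of all genes were called (31.5% higher and 42.7% lower). ADT-mouse fibroblasts differed from DMSO in 15, also 9 higher and 6 lower, against 74.8% (31.5% higher and 43.3% lower). The shares of ligand genes called in the last pair of comparisons were near the background. Some genes counted as higher were tested only through the libraries where they were high. These were Ccl17 with TGF-β1, and Cxcl2 and Cxcl3 in the both-agent and ADT-mouse libraries. The median log2 difference of the 19 was -0.42 with enzalutamide, -0.71 with TGF-β1, 0.08 with both agents and 0.01 in ADT-mouse fibroblasts, against -0.01, -0.10, -0.13 and -0.13 over all genes. These 4 comparisons share the DMSO libraries, so their values are given side by side and not as independent results.

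**Figure D1:**
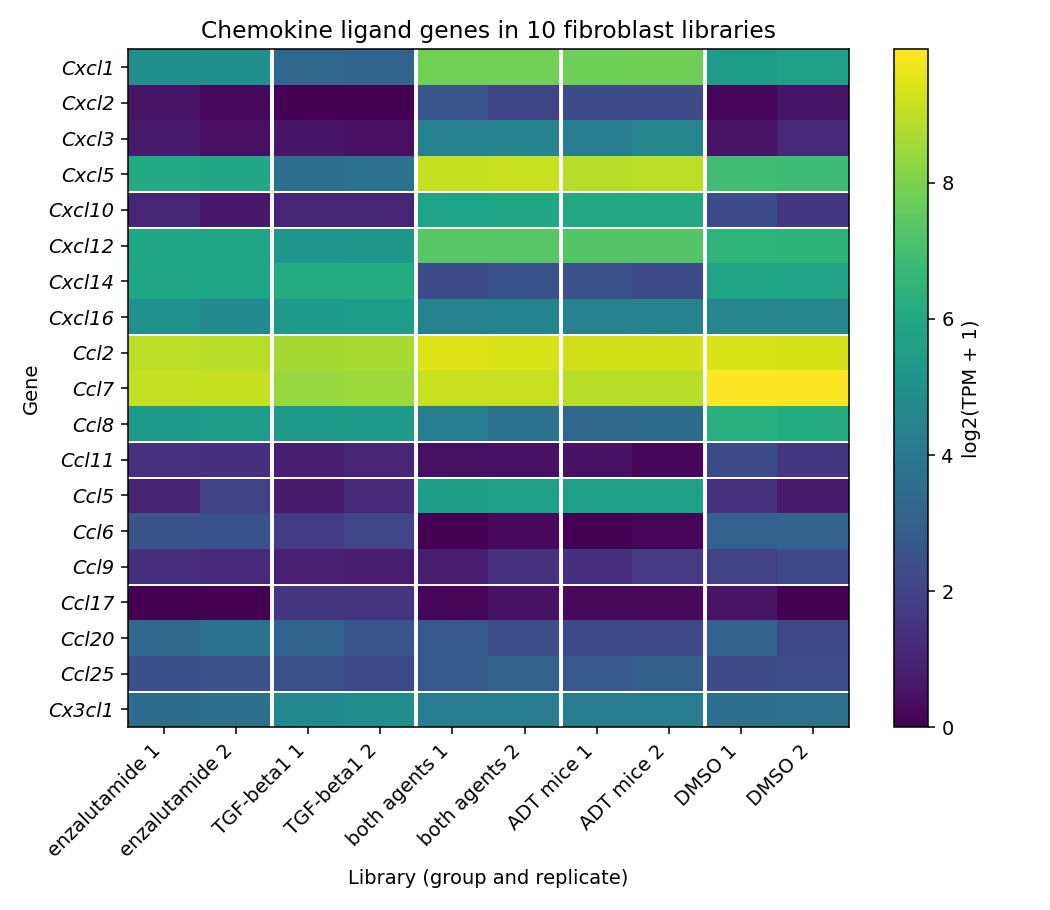
Level of the 19 tested chemokine ligand genes (rows, grouped by role) in each of the 10 libraries (columns), as colour on the log2(TPM + 1) scale. The both-agent and ADT-mouse columns share bright Cxcl1 and Cxcl5 and dark Cxcl14 and Ccl6, while Ccl2 and Ccl7 are bright in every library.

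The ELR genes among the members were lower or not called with either agent alone and all 4 tested members were higher in the both-agent and ADT-mouse libraries. Cxcl2 and Cxcl3 passed the test filter only through those libraries, which favoured a rise there, so the direction rests on Cxcl1 and Cxcl5. Cxcl5, the most abundant of them and in mice a CXCR2 ligand, had 66.5 and 59.7 TPM with enzalutamide, 12.0 and 12.2 TPM with TGF-β1, 539 and 554 TPM with both agents, 472 and 499 TPM in ADT-mouse fibroblasts, and 118 and 116 TPM in DMSO fibroblasts. No 2 of these groups overlapped. Against DMSO, Cxcl5 was 1.86-fold lower with enzalutamide (log2 difference -0.88 ± 0.05 SE, adjusted p = 1.1e-05) and 9.69-fold lower with TGF-β1 (-3.17 ± 0.05, adjusted p = 2.1e-09). It was 4.67-fold higher with both agents (2.21 ± 0.05, adjusted p = 4.1e-09) and 4.15-fold higher in ADT-mouse fibroblasts (2.04 ± 0.05, adjusted p = 6.1e-09). Cxcl1, which encodes a main neutrophil attractant of inflamed tissue, followed the same order of groups. Its levels were 30.5 and 31.2 TPM with enzalutamide, 9.31 and 8.23 TPM with TGF-β1, 231 and 231 TPM with both agents, 214 and 224 TPM in ADT-mouse fibroblasts, and 44.6 and 50.1 TPM in DMSO fibroblasts. The fall was 1.54-fold with enzalutamide (adjusted p = 4e-04) and 5.40-fold with TGF-β1 (adjusted p = 5.2e-08). The rise was 4.88-fold with both agents (adjusted p = 1.6e-08) and 4.64-fold in ADT-mouse fibroblasts (adjusted p = 1.9e-08).

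The other 2 ELR genes stood near the detection limit outside the both-agent and ADT-mouse libraries. Cxcl3, a close relative of Cxcl1, had 0.639 and 0.334 TPM with enzalutamide, 0.494 and 0.328 TPM with TGF-β1, 19.6 and 21.0 TPM with both agents, 17.0 and 22.3 TPM in ADT-mouse fibroblasts, and 0.451 and 1.18 TPM in DMSO fibroblasts. Cxcl2, another neutrophil attractant, had 0.450 and 0.157 TPM with enzalutamide, was at 0 in both TGF-β1 libraries, had 5.16 and 3.11 TPM with both agents, 3.93 and 3.80 TPM in ADT-mouse fibroblasts, and 0.141 and 0.476 TPM in DMSO fibroblasts. Both genes were therefore far higher in 4 libraries and overlapped with DMSO after enzalutamide. For Cxcl3 the rise over DMSO was 24.9-fold with both agents (adjusted p = 1.1e-06) and 24.1-fold in ADT-mouse fibroblasts (adjusted p = 1.2e-06). DMSO fibroblasts held 10 Cxcl3 reads, against 300 with both agents and 278 in ADT-mouse fibroblasts, so the ratios at equal depth were 28.5 (95% counting interval 15.3 to 60.0) and 27.7 (14.9 to 58.5). Without DMSO library 2 the TPM ratios were 45.1 and 43.6, and without DMSO library 1 they were 17.2 and 16.6. For Cxcl2, 66 reads with both agents stood against 4 in DMSO fibroblasts, a ratio at equal depth of 15.7 with a 95% counting interval of 5.84 to 59.2. ADT-mouse fibroblasts had 58 Cxcl2 reads, a ratio over DMSO of 14.5 (5.36 to 54.9). In TPM, the ratios were 8.68 and 8.11 without DMSO library 1, and 29.2 and 27.3 without DMSO library 2, for both agents and ADT-mouse fibroblasts in that order. Against TGF-β1 alone, where the Cxcl2 count was 0, the 95% counting interval of the ratio for both agents began at 16.1. A count of 0 allows up to 3 reads over the group, and the 66 reads taken as exact against 3 gave a ratio of 20.3. Intervals and floors cover counting error only. Cxcl15 was at 0 in every library, and Ppbp, an ELR gene outside the symbol rule, is described further on.

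Cxcl10, an interferon-induced ligand of the T-cell receptor CXCR3, showed the same split. It had 1.03 and 0.618 TPM with enzalutamide, 1.07 and 1.06 TPM with TGF-β1, 54.5 and 60.8 TPM with both agents, 63.0 and 63.4 TPM in ADT-mouse fibroblasts, and 3.75 and 2.03 TPM in DMSO fibroblasts. Both single-agent groups lay wholly below DMSO and the other 4 libraries wholly above it. Cxcl10 was 3.50-fold lower than in DMSO fibroblasts with enzalutamide (log2 difference -1.07 ± 0.20, adjusted p = 0.0056) and 2.72-fold lower with TGF-β1 (-0.88 ± 0.20, adjusted p = 0.0058). These falls rest on 7 and 4 reads with enzalutamide and 7 and 7 with TGF-β1, against 27 and 13 in the DMSO libraries. With 1 library left out they ran from 2.46-fold to 4.68-fold with enzalutamide and from 1.91-fold to 3.53-fold with TGF-β1. The level was 19.9-fold higher than in DMSO fibroblasts with both agents (3.95 ± 0.20, adjusted p = 3.6e-07) and 21.9-fold higher in ADT-mouse fibroblasts (4.08 ± 0.20, adjusted p = 2.9e-07). Of the other CXCR3 ligands, Cxcl9 reached at most 1.17 TPM, in an ADT-mouse library, and Cxcl11 at most 0.183 TPM, also there, so that neither was tested. Cxcl9 had 32 reads with both agents, 36 in ADT-mouse fibroblasts and 6 in DMSO fibroblasts.

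**Figure D2:**
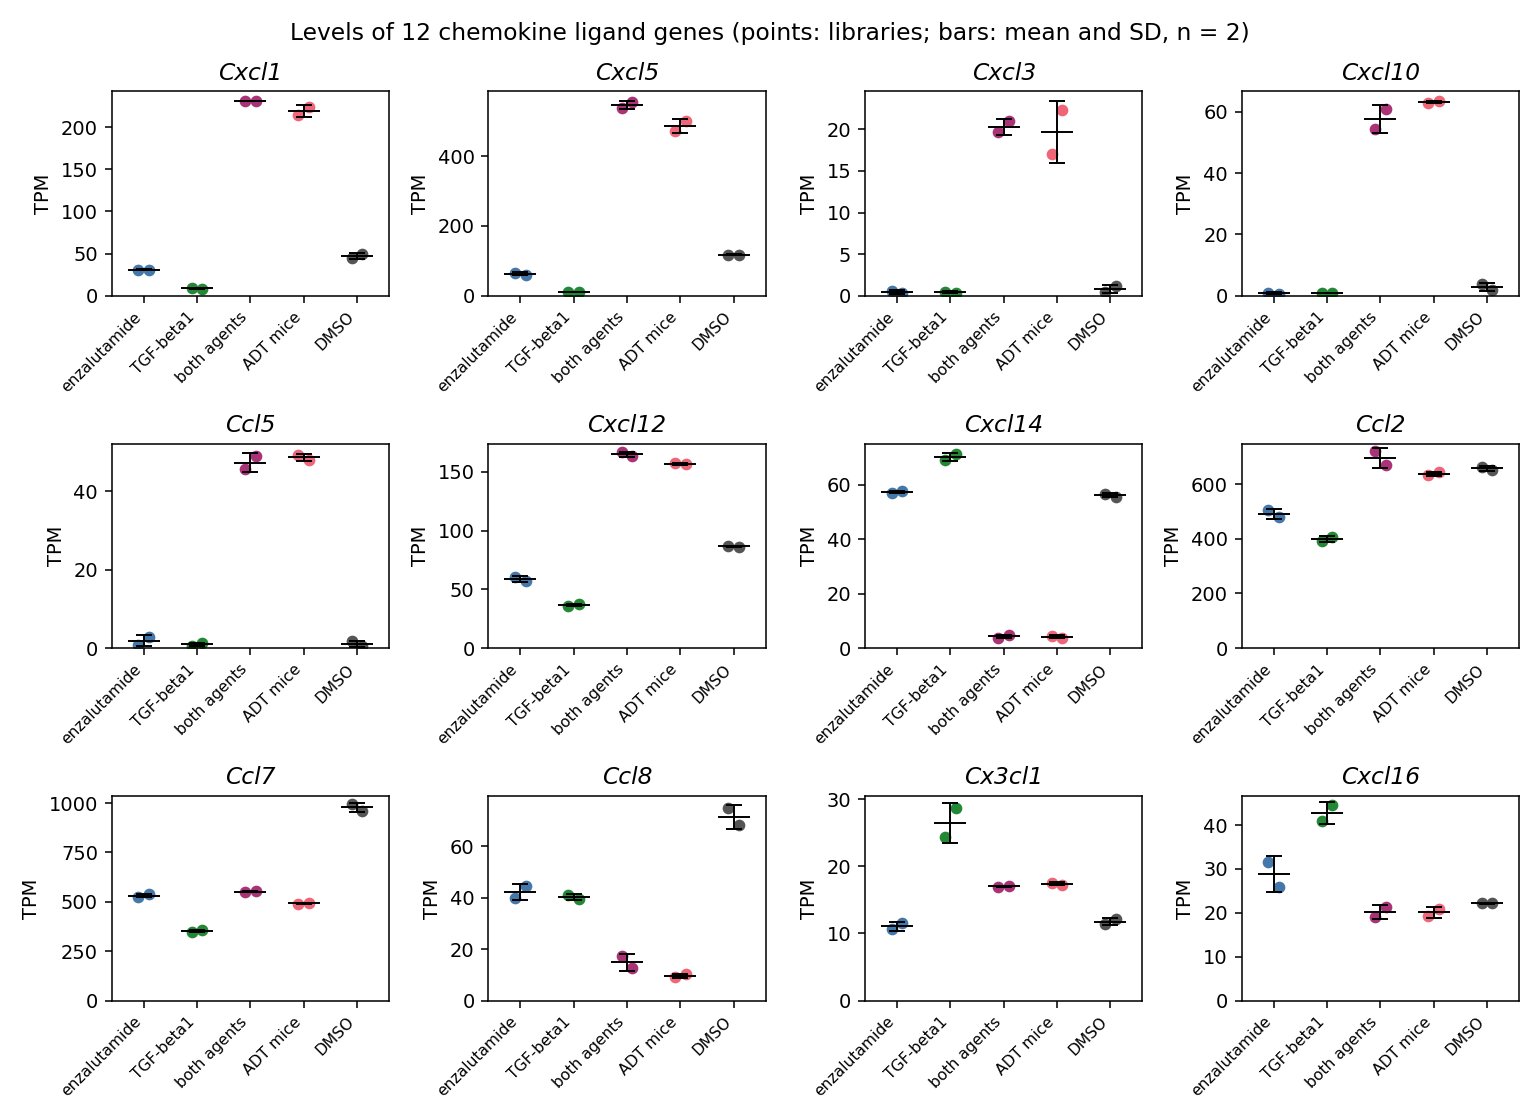
TPM of 12 chemokine ligand genes in each library (points, 2 per group), with the mean and SD of the group (n = 2) as black bars, on a linear axis from 0 for each gene. For Cxcl1, Cxcl5, Cxcl3, Cxcl10, Ccl5 and Cxcl12 the both-agent and ADT-mouse libraries lie above the DMSO libraries, and for Cxcl14, Ccl7 and Ccl8 below them.

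Among the remaining CXC genes, Cxcl12 rose and Cxcl14 fell in the both-agent and ADT-mouse libraries. Cxcl12, the CXCR4 ligand that retains stem cells and lymphocytes in their niches, had 60.8 and 57.2 TPM with enzalutamide, 36.2 and 37.6 TPM with TGF-β1, 167 and 163 TPM with both agents, 158 and 156 TPM in ADT-mouse fibroblasts, and 87.1 and 86.1 TPM in DMSO fibroblasts. All 5 groups were separate. It was 1.47-fold lower than in DMSO fibroblasts with enzalutamide (adjusted p = 2.2e-05) and 2.35-fold lower with TGF-β1 (adjusted p = 5.9e-08), but 1.90-fold higher with both agents (adjusted p = 7.6e-08) and 1.81-fold higher in ADT-mouse fibroblasts (adjusted p = 1.2e-07). Cxcl14, a constitutively expressed chemokine of epithelium and stroma, had 57.2 and 57.7 TPM with enzalutamide, 69.2 and 71.3 TPM with TGF-β1, 3.91 and 4.69 TPM with both agents, 4.55 and 3.77 TPM in ADT-mouse fibroblasts, and 56.7 and 55.6 TPM in DMSO fibroblasts. The both-agent and ADT-mouse libraries were far below all others. The fall against DMSO was 13.1-fold with both agents (log2 difference -3.44 ± 0.09, adjusted p = 7.1e-09) and 13.5-fold in ADT-mouse fibroblasts (-3.47 ± 0.09, adjusted p = 6.5e-09). The rise with TGF-β1 was 1.25-fold (adjusted p = 0.015), and the call was lost without either DMSO library or without TGF-β1 library 2 (adjusted p up to 0.07).

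Cxcl16 encodes a membrane-bound ligand of CXCR6 and rose with TGF-β1. It had 31.7 and 25.9 TPM with enzalutamide, 41.0 and 44.5 TPM with TGF-β1, 19.1 and 21.2 TPM with both agents, 19.2 and 21.0 TPM in ADT-mouse fibroblasts, and 22.1 and 22.2 TPM in DMSO fibroblasts. The TGF-β1 libraries were above every other. Their difference from DMSO was 1.93-fold (log2 0.92 ± 0.10, adjusted p = 9.5e-05). That of enzalutamide was 1.30-fold (0.36 ± 0.10, adjusted p = 0.031) and was no longer called without either DMSO library or without enzalutamide library 1, the adjusted p over all alternatives running from 0.0095 to 0.25. Cxcl16 was not called in the both-agent (adjusted p = 0.25) or ADT-mouse libraries (adjusted p = 0.23). Cxcl13 and Cxcl17 were at 0 throughout.

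Ccl2 and Ccl7, ligands of CCR2 on monocytes, were the most abundant chemokine transcripts with either agent alone and in DMSO fibroblasts. In the both-agent and ADT-mouse libraries Cxcl5 overlapped with Ccl7. Ccl7 had 525 and 538 TPM with enzalutamide, 347 and 357 TPM with TGF-β1, 551 and 553 TPM with both agents, 491 and 493 TPM in ADT-mouse fibroblasts, and 996 and 962 TPM in DMSO fibroblasts. Every DMSO library lay above every other. The fall was 1.84-fold with enzalutamide (adjusted p = 1.0e-07), 2.78-fold with TGF-β1 (adjusted p = 2.0e-09), 1.77-fold with both agents (adjusted p = 1.2e-08) and 1.99-fold in ADT-mouse fibroblasts (adjusted p = 4.5e-09). Ccl2 had 504 and 478 TPM with enzalutamide, 393 and 408 TPM with TGF-β1, 720 and 668 TPM with both agents, 633 and 643 TPM in ADT-mouse fibroblasts, and 664 and 652 TPM in DMSO fibroblasts. It fell 1.34-fold with enzalutamide (log2 difference -0.42 ± 0.04, adjusted p = 0.00016) and 1.64-fold with TGF-β1 (-0.71 ± 0.04, adjusted p = 2.0e-06). The both-agent libraries (0.08 ± 0.04, adjusted p = 0.11) and the ADT-mouse libraries (-0.04 ± 0.04, adjusted p = 0.33) were not called against DMSO.

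Ccl8, which in mice also signals through CCR8, fell in all 4 groups. It had 40.1 and 44.6 TPM with enzalutamide, 41.0 and 39.6 TPM with TGF-β1, 17.3 and 12.6 TPM with both agents, 9.18 and 10.3 TPM in ADT-mouse fibroblasts, and 74.9 and 68.3 TPM in DMSO fibroblasts. The single-agent groups overlapped each other and lay between the DMSO libraries and the rest. The fall against DMSO was 1.69-fold with enzalutamide (adjusted p = 0.0042), 1.78-fold with TGF-β1 (adjusted p = 0.00097), 4.79-fold with both agents (adjusted p = 1.0e-06) and 7.36-fold in ADT-mouse fibroblasts (adjusted p = 2.5e-07). Ccl12, a mouse CCR2 ligand, was detected at no more than 1.60 TPM, in 1 DMSO library, and was not tested.

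Of the inflammatory CC ligands that share CCR1, Ccl5 was high in the both-agent and ADT-mouse libraries. Ccl5, an attractant of T cells and monocytes, had 0.917 and 2.88 TPM with enzalutamide, 0.630 and 1.26 TPM with TGF-β1, 45.6 and 49.0 TPM with both agents, 49.3 and 48.0 TPM in ADT-mouse fibroblasts, and 1.73 and 0.647 TPM in DMSO fibroblasts. The single-agent groups overlapped with DMSO and were not called (adjusted p = 0.49 with enzalutamide and 0.75 with TGF-β1). The log2 difference from DMSO was 4.51 ± 0.34 with both agents (adjusted p = 5.2e-06) and 4.55 ± 0.34 in ADT-mouse fibroblasts (adjusted p = 4.8e-06). In reads, 365 with both agents and 359 in ADT-mouse fibroblasts stood against 8 in DMSO fibroblasts, ratios of 43.3 (21.8 to 101) and 44.8 (22.5 to 104). The ratio of mean TPM over DMSO was 39.9 with both agents and 41.0 in ADT-mouse fibroblasts. It was 73.2 and 75.3 without DMSO library 1, and 27.4 and 28.2 without DMSO library 2. In the same 4 libraries the leukocyte markers Cd74 and Cd14 were higher than in DMSO fibroblasts. Ptprc, the pan-leukocyte gene, was too low in every library to be tested. Its mean was 0.0374 TPM with both agents and 0.0246 TPM in ADT-mouse fibroblasts, against 0.334 TPM in DMSO fibroblasts. The part of these markers in the Ccl5 result was not tested.

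Ccl6 and Ccl9, mouse CCR1 ligands known from macrophages, moved the other way. Ccl6 had 4.87 and 4.74 TPM with enzalutamide, 2.45 and 3.26 TPM with TGF-β1, 0 and 0.204 TPM with both agents, 0 and 0.0988 TPM in ADT-mouse fibroblasts, and 7.36 and 7.78 TPM in DMSO fibroblasts. No group overlapped with DMSO, and the both-agent and ADT-mouse libraries held almost no reads. The count was 2 reads with both agents and 1 read in ADT-mouse fibroblasts, against 134 in DMSO fibroblasts, which made the level in DMSO 70.6 times that of the both-agent libraries (95% counting interval 19.2 to 589) and 134 times that of ADT-mouse fibroblasts (23.7 to 5343). Ccl6 fell 2.65-fold with TGF-β1 (adjusted p = 0.00026, and 0.057 with 0.1 added before the log) and 1.58-fold with enzalutamide (adjusted p = 0.026). The enzalutamide call was lost when any 1 of the 4 libraries was left out, with an adjusted p of up to 0.44 over the alternatives. Lyz2 had 63.4 and 71.1 TPM with enzalutamide, 69.5 and 72.0 TPM with TGF-β1, 1.60 and 4.02 TPM with both agents, 4.72 and 3.36 TPM in ADT-mouse fibroblasts, and 82.0 and 78.3 TPM in DMSO fibroblasts, and so was low in the same 4 libraries as Ccl6. Its part in the Ccl6 difference was not tested.

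Ccl9 had 1.51 and 1.36 TPM with enzalutamide, 0.836 and 0.722 TPM with TGF-β1, 0.734 and 1.66 TPM with both agents, 1.56 and 2.17 TPM in ADT-mouse fibroblasts, and 2.80 and 3.60 TPM in DMSO fibroblasts. It was below DMSO in all 8 other libraries. The fall was 4.11-fold with TGF-β1 (adjusted p = 0.0017) and 2.68-fold with both agents (adjusted p = 0.0038). The latter was 4.36-fold without both-agent library 2 and 1.93-fold without both-agent library 1. The calls with enzalutamide (adjusted p = 0.033, up to 0.16 over the alternatives) and in ADT-mouse fibroblasts (adjusted p = 0.046, up to 0.22) were lost without either DMSO library, and without either enzalutamide library or without ADT-mouse library 1. Ccl3 and Ccl4, products of activated macrophages, stayed at or under 1.03 TPM, the highest value of Ccl3 being in 1 enzalutamide library and that of Ccl4 0.974 TPM in 1 DMSO library. Ccl11, the eosinophil attractant eotaxin, had 1.67 and 1.58 TPM with enzalutamide, 0.781 and 1.09 TPM with TGF-β1, 0.363 and 0.410 TPM with both agents, 0.410 and 0.132 TPM in ADT-mouse fibroblasts, and 3.85 and 2.08 TPM in DMSO fibroblasts. DMSO was the highest group, and the gene fell 3.17-fold with TGF-β1 (adjusted p = 0.0062). It also fell with both agents (log2 difference -1.48 ± 0.23, adjusted p = 0.00041) and in ADT-mouse fibroblasts (-1.61 ± 0.23, adjusted p = 0.00024), on 4 to 40 reads a group. The enzalutamide difference was not called (adjusted p = 0.11). The other eotaxin rows, Ccl24 and Ccl26, were at 0.

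Cx3cl1 encodes fractalkine, a membrane-anchored ligand of CX3CR1, and rose in 3 of the 4 groups. It had 10.6 and 11.5 TPM with enzalutamide, 24.4 and 28.7 TPM with TGF-β1, 16.9 and 17.1 TPM with both agents, 17.6 and 17.2 TPM in ADT-mouse fibroblasts, and 11.3 and 12.1 TPM in DMSO fibroblasts. The TGF-β1 libraries were highest and the enzalutamide libraries overlapped with DMSO. The rise was 2.27-fold with TGF-β1 (adjusted p = 8.5e-06), 1.45-fold with both agents (adjusted p = 0.00046) and 1.49-fold in ADT-mouse fibroblasts (adjusted p = 0.00032). Ccl17, a CCR4 ligand for T cells, was at 0 in both enzalutamide libraries and had 1.96 and 1.84 TPM with TGF-β1, 0.0892 and 0.402 TPM with both agents, 0.201 and 0.195 TPM in ADT-mouse fibroblasts, and 0.420 and 0 TPM in DMSO fibroblasts. Only the TGF-β1 libraries passed 1 TPM, so Ccl17 was tested through the group where it was high. They held 33 reads against 4 in DMSO fibroblasts, a ratio of 8.48 (3.02 to 33.0) that in TPM was 9.03 with all libraries and 4.51 without DMSO library 2, and the log2 difference was 1.28 ± 0.22 (adjusted p = 0.0013).

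Ccl25, the CCR9 ligand of thymus and gut, had 4.39 and 4.59 TPM with enzalutamide, 4.53 and 3.76 TPM with TGF-β1, 5.94 and 7.91 TPM with both agents, 5.72 and 7.03 TPM in ADT-mouse fibroblasts, and 4.02 and 4.13 TPM in DMSO fibroblasts. It rose 1.70-fold with both agents (adjusted p = 0.0036) and 1.56-fold in ADT-mouse fibroblasts (adjusted p = 0.0086, but 0.063 without ADT-mouse library 2). Ccl20, the CCR6 ligand, had 9.93 and 12.3 TPM with enzalutamide, 8.15 and 5.21 TPM with TGF-β1, 5.83 and 4.20 TPM with both agents, 3.66 and 3.54 TPM in ADT-mouse fibroblasts, and 7.83 and 3.65 TPM in DMSO fibroblasts. The DMSO libraries spread widely and no comparison of Ccl20 with DMSO was called, that with enzalutamide having an adjusted p of 0.064. Ccl28 peaked at 0.989 TPM in an enzalutamide library and Ccl22 at 0.0809 TPM in a both-agent library. Ccl1, Ccl19 and Xcl1 were at 0 in all 10 libraries, as were Ccl24, Ccl26, Cxcl13, Cxcl15 and Cxcl17. Across 181914431 reads in all, a count of 0 allows up to 3 reads.

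**Figure D3:**
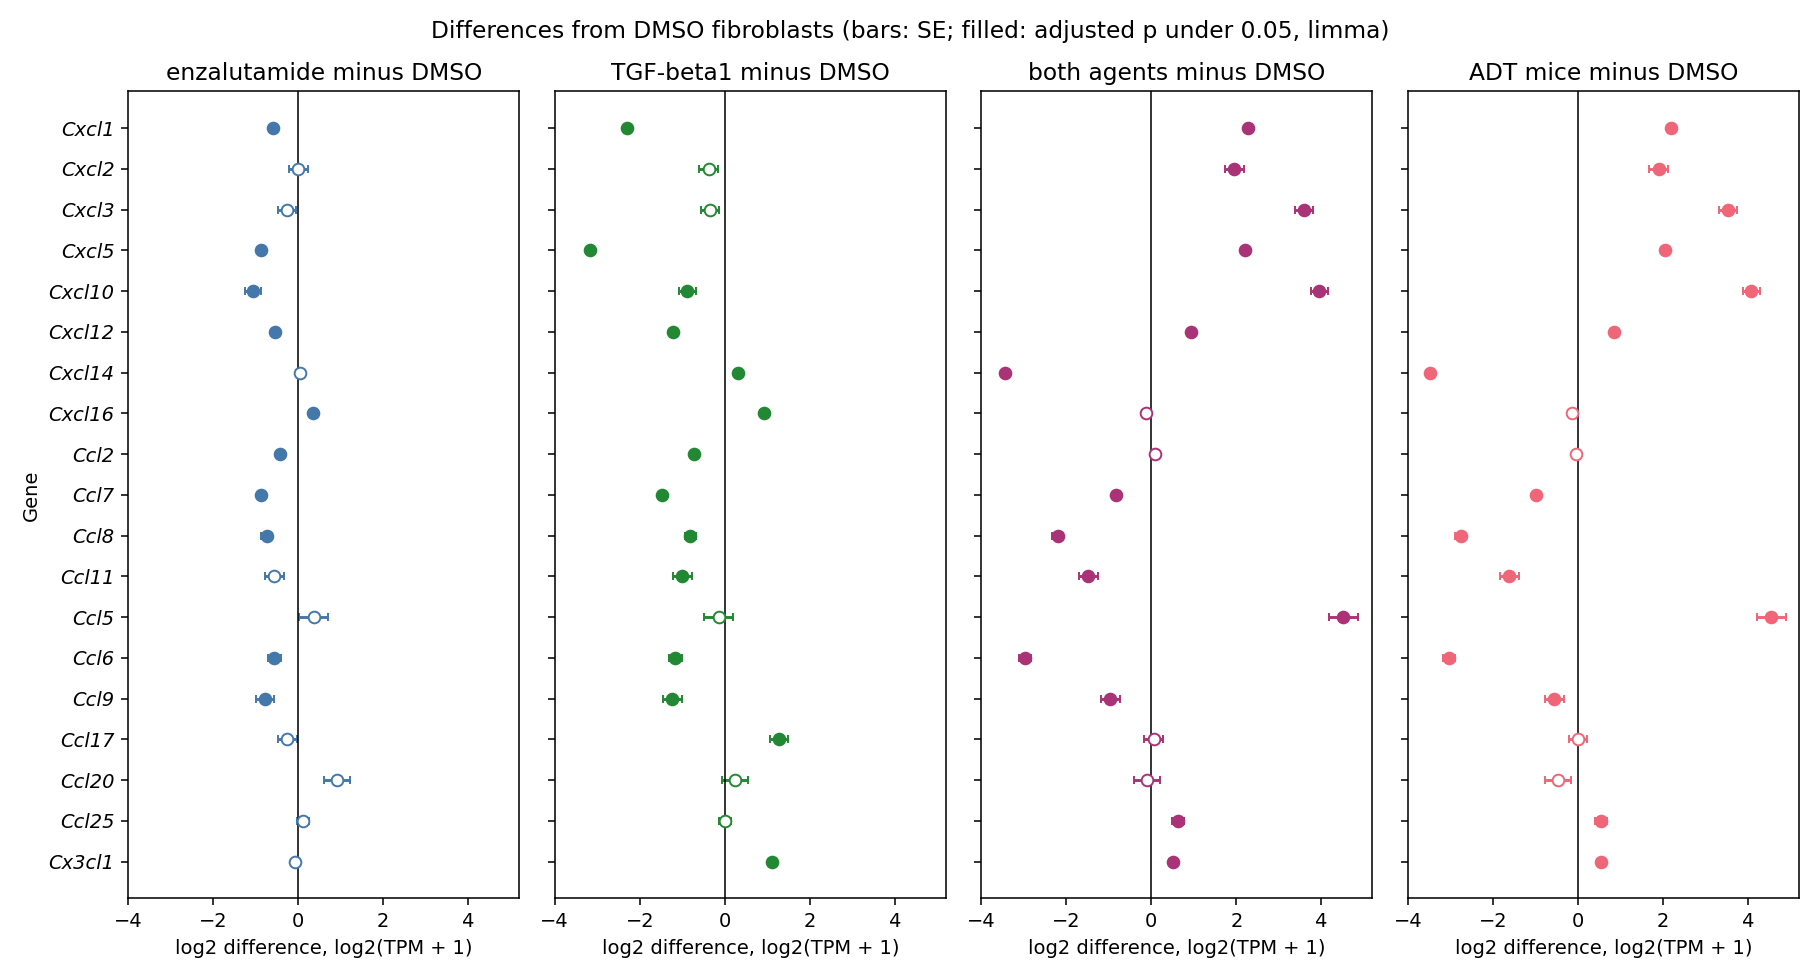
Log2 difference from DMSO fibroblasts, on the log2(TPM + 1) scale, of the 19 tested genes with enzalutamide, TGF-β1, both agents and in ADT-mouse fibroblasts (points, with SE bars), filled where the adjusted p was under 0.05. The first 2 panels hold mostly negative values, the lowest being Cxcl5 and Cxcl1 with TGF-β1, and the last 2 panels repeat the same pattern of large values in both directions. All 4 panels share the DMSO libraries.

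Of 9 further chemokine rows outside the symbol rule, 7 were not tested, the highest value among them being 1.99 TPM. Ppbp, which encodes the ELR chemokine CXCL7, had 4.20 and 7.06 TPM with enzalutamide, 3.41 and 1.39 TPM with TGF-β1, 9.47 and 13.2 TPM with both agents, 11.6 and 11.7 TPM in ADT-mouse fibroblasts, and 5.37 and 9.37 TPM in DMSO fibroblasts, and was called against DMSO with TGF-β1 alone (log2 difference -1.32 ± 0.35, adjusted p = 0.013). Unlike the ELR members it was not called with both agents (log2 difference 0.59, adjusted p = 0.16) or in ADT-mouse fibroblasts (0.64, adjusted p = 0.13), though both differences were positive. Ppbp was called higher with both agents than with enzalutamide (0.92 ± 0.35, adjusted p = 0.043) and than with TGF-β1 (1.91 ± 0.35, adjusted p = 0.0013). Ccl27a, a skin-associated CCR10 ligand gene, was called in ADT-mouse fibroblasts, at 1.67 ± 0.16 TPM against 2.64 ± 0.77 TPM in DMSO fibroblasts (SD, n = 2 each, log2 difference -0.43 ± 0.17, adjusted p = 0.046).

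The both-agent libraries were also set against each agent alone. Against enzalutamide, 16 of the 19 ligand genes differed, 10 higher and 6 lower, and 74.2% of all genes were called (31.4% higher and 42.8% lower). Against TGF-β1, 16 differed, 10 higher and 6 lower, with a background of 71.6% (33.4% higher and 38.2% lower). Both counts of higher genes include Cxcl2 and Cxcl3, and the lower genes against TGF-β1 include Ccl17. These genes passed the test filter only through the libraries where they were high, which favoured those directions. Cxcl5 was 8.67-fold higher with both agents than with enzalutamide (adjusted p = 7.1e-10) and 45.2-fold higher than with TGF-β1 (adjusted p = 5.4e-11). Cxcl14 was 13.4-fold lower than with enzalutamide (adjusted p = 6.9e-09) and 16.4-fold lower than with TGF-β1 (adjusted p = 4.9e-09). Cx3cl1 was 1.54-fold higher than with enzalutamide (adjusted p = 0.0002) and 1.56-fold lower than with TGF-β1 (adjusted p = 0.00016). Ccl20 was 2.22-fold lower than with enzalutamide (adjusted p = 0.016), a call lost without enzalutamide library 2 or both-agent library 2 (adjusted p up to 0.093). Ccl25 was 1.54-fold higher than with enzalutamide (adjusted p = 0.01, but 0.072 without both-agent library 2).

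Between the both-agent and ADT-mouse libraries, limma called none of the 19 ligand genes, and 0.0135% of all genes, or 2. At an unadjusted p under 0.05 there were 4 of the 19 ligand genes and 1220, or 8.23%, of all genes. The log2 differences of the 19 ran from -0.41 to 0.56, the highest being Ccl8 at 14.9 ± 3.3 TPM with both agents and 9.73 ± 0.77 TPM in ADT-mouse fibroblasts (SD, n = 2 each, adjusted p = 0.4). For Cxcl5 the means were 546 ± 11 and 486 ± 19 TPM (adjusted p = 0.46) in the both-agent and ADT-mouse libraries. These groups differ by label in mouse, day and treatment, and an adjusted p that misses the threshold does not show that they are alike.

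The difference that goes with TGF-β1 was compared with and without enzalutamide, as both agents minus enzalutamide less TGF-β1 minus DMSO. This difference of effects was called for 17 of the 19 ligand genes, 10 positive and 7 negative, where 63.7% of all genes were called (30.7% positive and 33.1% negative). The positive genes include Cxcl2 and Cxcl3 and the negative ones Ccl17, whose signs were favoured by the test filter. Cxcl5 was 3.10 log2 units higher with both agents than with enzalutamide but 3.17 log2 units lower (log2 difference -3.17) with TGF-β1 than with DMSO, a difference of effects of 6.27 ± 0.07 (adjusted p = 2.9e-10). That of Cxcl1 was 5.17 ± 0.09 (adjusted p = 2.5e-09) and that of Cxcl10 5.89 ± 0.28 (adjusted p = 4.6e-07). Cxcl14 had the most negative one, at -3.79 ± 0.12 (adjusted p = 5.3e-08). It was not called for Ccl11 (adjusted p = 0.84) or Ccl25 (adjusted p = 0.057). Each of these values rests on the both-agent libraries, so a joint action of the agents cannot be told apart from whatever sets those libraries near the ADT-mouse ones.

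**Figure D4:**
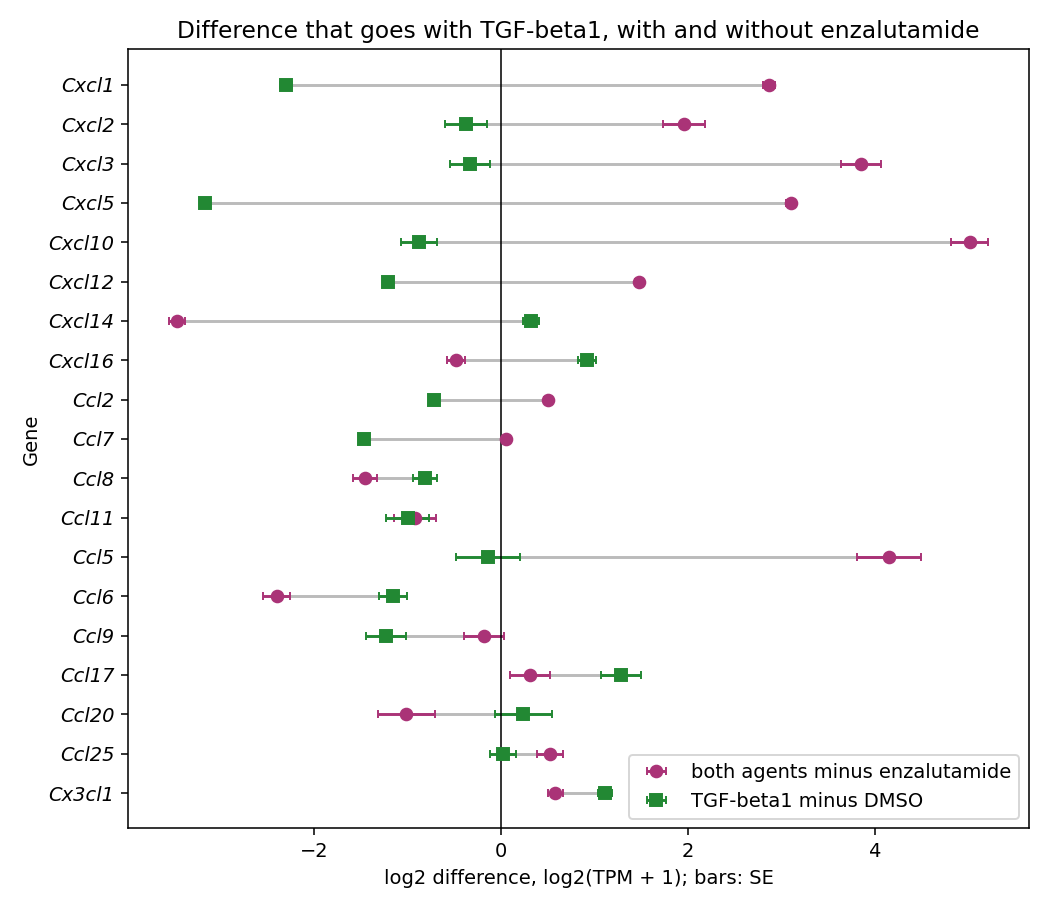
Log2 difference on the log2(TPM + 1) scale for both agents minus enzalutamide (circles) and for TGF-β1 minus DMSO (squares), with SE bars, for the 19 tested genes. The symbols lie on opposite sides of 0 for genes such as Cxcl1, Cxcl5, Cxcl10, Cxcl12, Cxcl14 and Cxcl16, and close together for Ccl11.

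Few chemokine receptors reached the level for testing, and they were called with TGF-β1. Over all genes, 53.6% were called in that comparison with DMSO (19.0% higher and 34.6% lower). Of 18 signalling receptor genes, 3 were tested, and all 3 were higher with TGF-β1 than with DMSO. Cxcr6, the receptor for CXCL16, had 26.6 ± 0.6 TPM with TGF-β1 and 3.37 ± 0.27 TPM in DMSO fibroblasts (adjusted p = 4.0e-06). Cxcr4, the CXCL12 receptor, had 4.23 ± 0.85 TPM with TGF-β1 and 0.270 ± 0.147 TPM in DMSO fibroblasts (adjusted p = 5.4e-05). The XCL1 receptor gene Xcr1 was the third, at 1.97 ± 0.40 TPM with TGF-β1 and 0.416 ± 0.043 TPM in DMSO fibroblasts (SD, n = 2 each, adjusted p = 0.0014). None of the 3 was called against DMSO with enzalutamide, both agents or in ADT-mouse fibroblasts. Cxcr4 and Xcr1 averaged 0.542 and 0.747 TPM with enzalutamide, and 0.0353 and 0.265 TPM with both agents. Their passing the test filter of 1 TPM thus leaned on the TGF-β1 libraries, which favoured a rise there. Ackr3, the scavenging receptor for CXCL12 and the only atypical receptor of 5 that was tested, was lower with enzalutamide (12.2 ± 0.3 TPM, adjusted p = 0.00068) and TGF-β1 (14.1 ± 0.02 TPM, adjusted p = 0.0033) than in DMSO fibroblasts (17.6 ± 0.7 TPM).

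Genes of the signalling routes known to induce chemokines were described by counts, to be read against the 25.0%, 53.6%, 74.2% and 74.8% of all genes called with enzalutamide, TGF-β1, both agents and in ADT-mouse fibroblasts. Of 10 interferon signal genes, 0 rose and 7 fell with enzalutamide, 0 rose and 10 fell with TGF-β1, 7 rose and 2 fell with both agents, and 6 rose and 2 fell in ADT-mouse fibroblasts, all against DMSO. Their median log2 differences were -0.54, -1.42, 0.36 and 0.39 in that order of groups, beside the medians over all genes given above. Ifit1, an interferon-induced RNA-binding protein gene, had 4.53 ± 0.30 TPM with enzalutamide and 0.888 ± 0.088 TPM with TGF-β1, against 14.3 ± 0.002 TPM in DMSO fibroblasts (adjusted p = 5.0e-06 and 2.4e-08). Isg15, a ubiquitin-like interferon target, had 125 ± 3 TPM with both agents and 130.0 ± 3.0 TPM in ADT-mouse fibroblasts, against 15.3 ± 0.4 TPM in DMSO fibroblasts (adjusted p = 1.2e-07 and 1.1e-07). Cxcl10 was low and high in the same groups.

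Of 13 genes for NF-κB subunits and feedback inhibitors, 2 rose and 3 fell with enzalutamide, 2 rose and 6 fell with TGF-β1, and 7 rose and 1 fell both with both agents and in ADT-mouse fibroblasts. Counted in either direction, 5 of 13 with enzalutamide stood against 25.0%. The other counts were near or, for both agents and ADT-mouse fibroblasts, below the share over all genes. By direction, the 7 that rose in each of these comparisons stood beside 31.5% of all genes, and the 1 that fell beside 42.7% and 43.3%. The median log2 differences of the list were 0.30 with both agents and 0.42 in ADT-mouse fibroblasts, against -0.13 in each over all genes. Nfkbiz, a nuclear cofactor of NF-κB, had 12.6 ± 0.2 TPM with enzalutamide, 8.15 ± 0.11 TPM with TGF-β1, 40.4 ± 0.7 TPM with both agents, 38.4 ± 0.9 TPM in ADT-mouse fibroblasts and 17.7 ± 1.2 TPM in DMSO fibroblasts (SD, n = 2 each). All 4 differences from DMSO were called, with adjusted p of 0.00054, 1.5e-06, 2.5e-07 and 3.6e-07. Other inflammatory genes did not share one direction. Of 14 tested, 3 rose and 3 fell with enzalutamide, 5 and 7 with TGF-β1, 4 and 8 with both agents, and 4 and 10 in ADT-mouse fibroblasts, where 25.0%, 53.6%, 74.2% and 74.8% of all genes were called. The leukocyte adhesion gene Vcam1 was at 406 ± 6 TPM with enzalutamide, 106 ± 1 TPM with TGF-β1, 86.5 ± 0.5 TPM with both agents and 90.9 ± 0.3 TPM in ADT-mouse fibroblasts, against 534 ± 14 TPM in DMSO fibroblasts.

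Proteases that trim chemokines were counted as well. Of 7 tested, 2 rose and 3 fell with enzalutamide, 3 rose and 4 fell with TGF-β1, and 5 rose and 1 fell both with both agents and in ADT-mouse fibroblasts. Over all genes, 25.0%, 53.6%, 74.2% and 74.8% were called in these comparisons. Mmp9, a gelatinase that cleaves several CXC ligands, had 3.04 ± 0.40 TPM with enzalutamide, 37.9 ± 0.5 TPM with TGF-β1, 374 ± 0.1 TPM with both agents, 409 ± 1 TPM in ADT-mouse fibroblasts and 1.69 ± 0.22 TPM in DMSO fibroblasts (adjusted p = 0.00079, 6.3e-09, 6.5e-11 and 6.3e-11). Of 11 tested genes of the TGF-β response, 2 were higher and 9 lower with both agents than with TGF-β1. Over all genes, 71.6% were called in that comparison (33.4% higher and 38.2% lower). Ccn2, a TGF-β target that encodes a matrix-associated growth factor, had 1376 ± 2 TPM with both agents and 5913 ± 4 TPM with TGF-β1 (adjusted p = 6.1e-12). Comparisons of this list with DMSO are not given because 7 of its 12 genes lay on steps of 0.3 read in the DMSO columns, as no chemokine ligand gene did.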

How the data were processed

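The authors' deposited fibroblast table gives TPM per gene, per the file headers. HISAT2, HTSeq, DESeq2 and the builds mm10 and hg19 are named in the submitters' processing notes. Per the labels, total RNA was extracted with Trizol and prepared with the NEBNext Ultra kit. Whole reads were recovered from the smallest TPM steps (tolerance 0.05 read) for at least 97.7% of each column's total, and served for depth and counting intervals. Genes at 1 TPM or more in at least 2 of 10 libraries (14828) were fitted on the log2(TPM + 1) scale by limma (version 3.58.1; R 4.3.3), with 5 groups, 5 residual degrees of freedom and an intensity trend. Tests were two-sided, adjusted by the Benjamini-Hochberg method. In data simulated for TGF-β1 against DMSO (13835 genes), 14.3% of 1.5-fold, 78.7% of 2-fold and 95.7% of 4-fold changes were called. The simulation changed 70, 61 and 69 genes at these folds, and its replicate spread was set and not estimated from these libraries. In the real comparison 53.6% of all genes were called, so the simulated shares do not measure the power of the real tests. The columns labelled Sox4 were left out: their deviations followed those of the ADT-mouse columns (r = 0.941) and they summed to 923712 and 923739. In the DMSO columns, 49 genes lay on steps of 0.3 read. Members at a group mean of 1 TPM or more are named with all values, and at most 3 genes per other list and comparison, those with the smallest adjusted p. Members and lists were chosen with earlier results of these data known. The alternatives were another pseudocount, no filter, median-of-ratios scaling, a replicate block, leaving out libraries, adding the Sox4 columns and rescaling the 0.3-read genes, plus a fit without the ADT-mouse libraries that was chosen after seeing the data.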

Additional observations from a re-analysis of the deposited data

Results flagged for a closer look

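The difference that goes with TGF-β1 was unlike with and without enzalutamide for 17 ligand genes, by the limma test of the difference of effects. Over all genes, 63.7% were called in the same test (30.7% positive and 33.1% negative). On the log2(TPM + 1) scale, positive values were Cxcl5 at 6.27, Cxcl10 at 5.89, Cxcl1 at 5.17, Ccl5 at 4.29, Cxcl3 at 4.19, Cxcl12 at 2.68, Cxcl2 at 2.33, Ccl7 at 1.53, Ccl2 at 1.21 and Ccl9 at 1.05. Negative values were Cxcl14 at -3.79, Cxcl16 at -1.40, Ccl20 at -1.25, Ccl6 at -1.24, Ccl17 at -0.98, Ccl8 at -0.64 and Cx3cl1 at -0.53. Cxcl2, Cxcl3 and Ccl17 were tested only through the libraries where they were high, which favoured their signs. The adjusted p exceeded the threshold under at least 1 alternative for Ccl17 (up to 0.31), Ccl20 (up to 0.11), Ccl9 (up to 0.057) and Ccl8 (up to 0.05). Leaving out DMSO library 2 did so for Ccl9, Ccl17 and Ccl20. Leaving out enzalutamide library 2 did so for Ccl8 and Ccl20. Both-agent library 1 did so for Ccl17, and both-agent library 2 and TGF-β1 library 1 did so for Ccl20. All 17 rest on the both-agent libraries, whose distance to the ADT-mouse libraries (1.61 to 1.91 times counting noise) was near that between replicates (1.29 to 1.56).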

How the results depend on the processing

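Over 103 calls of ligand genes and their alternatives, 1176 of 1219 values kept their direction and stayed called, 43 kept their direction but were no longer called, and 0 changed sign. With the replicate number as a block, 11 ligand genes were called for enzalutamide, 14 for TGF-β1, 15 for both agents and 15 for ADT-mouse fibroblasts against DMSO, 16 and 16 for both agents against each agent, 0 against ADT-mouse fibroblasts and 17 for the difference of effects. Deviations of same-numbered libraries were little correlated (r from -0.03 to 0.09). Because replicates differed little beyond counting noise, this cannot exclude a small effect shared by libraries of the same number. Between the both-agent and ADT-mouse libraries, the 2 genes called became 6 with 0.1 added before the log, 14 with no filter on low values, 5 with the Sox4 columns, 0 with the replicate block, and 0 to 2 with 1 library left out. The fit assumes that a lone library varies like the other groups. Leaving out 1 library gave 7 or 8 called ligand genes for enzalutamide. Median-of-ratios scaling moved the median of all genes by 0.13 (both agents) and 0.14 (ADT mice) against DMSO and by 0.12 for both agents against enzalutamide. It changed the split for TGF-β1 against DMSO over all genes to 3944 higher and 3828 lower, from 2816 and 5137 as deposited. It likewise turned the majority for both agents against DMSO (5612 higher and 5313 lower, 4672 and 6335 as deposited), ADT mice against DMSO (5693 and 5322, 4668 and 6423 as deposited) and both agents against enzalutamide (5562 and 5325, 4661 and 6339 as deposited), so the shares of all genes higher and lower depend on the scaling. Reads of Ccl5, Ccl6, Ccl11, Ccl17, Cxcl2, Cxcl3 and Cxcl10 in their low groups were too few for firm sizes.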
